A study of Canis lupus familiaris with 4 samples.

Results

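The genes described here encode splicing factors of 3 families, the serine and arginine rich SRSF proteins, the heterogeneous nuclear ribonucleoproteins (HNRNP) and the numbered RNA binding motif (RBM) proteins, measured in dog kidney epithelial cells in normoxia and in hypoxia. A gene was taken as a member when a probe set with exactly 1 gene symbol carried a symbol that began with SRSF and a digit, HNRNP, or RBM and a digit. RBM3, a cold-inducible gene, was left out. The probe set with the highest mean intensity over the arrays stood for its gene. This gave 60 of the 15115 genes with a symbol on the array, 11 SRSF, 17 HNRNP and 32 RBM genes. The choice used no difference between arrays. HNRNPK, HNRNPA1 and HNRNPLL have no probe set with a single symbol and were not analysed here.

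The cells were MDCKII, a dog kidney line used as a model of epithelial polarity, and the RNA was hybridised to 3' Affymetrix canine arrays. Control cells, labelled wild type for HIF2A, and cells labelled HIF2A knockdown (HIF2α-KD) had 24 h in normoxia, followed by a further 24 h in either normoxia (16% O2) or hypoxia (1% O2). HIF2α, encoded by EPAS1, is an oxygen-regulated transcription factor. The knockdown lines of the study were made by retroviral delivery of shRNA with selection by puromycin, its controls carried an empty shRNA cassette, and the study names line HIF2α-KD#1 for its normoxic array comparison, which the labels do not repeat. There was 1 array for each of the 4 conditions, so a difference between 2 arrays has no replicate error and no p-value, and nothing in the labels gives a second culture.

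Before the members, the labels were checked. EPAS1 had an intensity of 44.6 in control cells and 47.9 in cells labelled HIF2α-KD in normoxia, and of 116 and 32.6 in hypoxia. The knockdown label thus went with less EPAS1 transcript in hypoxia, but in normoxia its array had slightly more, and differences between cell lines are given for arrays as labelled. In normoxia the HIF target VEGFA had 535 under the knockdown label and 1447 in control cells (-1.41). Of 9 measured HIF targets, 6 were lower under that label, beside 56.4% of all genes tested. VEGFA was the only 1 of them lower by 1.5-fold. All 9 measured genes of a list of HIF targets were higher in hypoxia in both cell lines, with median log2 differences of 2.71 in control cells and 2.24 in HIF2α-KD cells. Of 8 epithelial markers on the array, 6 exceeded the 95th percentile of the dim control reporters on all arrays (EPCAM, KRT8, KRT18, CDH16, MUC1 and CLDN7), as did 0 of 6 fibroblast markers, 1 of 5 endothelial markers and 3 of 4 leukocyte markers. CDH1, the gene of E-cadherin, did not, with intensities of 15.45 in control and 18.9 in HIF2α-KD cells in normoxia and of 119 and 81.4 in hypoxia. The summed intensity of the leukocyte list was 112 to 132 per array, against 30794 to 33946 for the epithelial list. The part of these other markers in the results was not tested.

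Splicing removes introns from transcripts in the nucleus. SR proteins bind exonic enhancers through RNA recognition motifs, recruit the spliceosome through arginine and serine repeats, and are controlled by phosphorylation. HNRNP proteins coat nascent transcripts and often repress splice sites, and several also act in RNA export, stability and translation. RBM proteins are named for an RNA recognition motif and are a mixed group that includes spliceosome subunits, regulators of tissue-specific exons, m6A and RNA decay cofactors and nucleolar proteins. Many SR and HNRNP genes hold poison exons, whose inclusion sends their own transcripts to nonsense-mediated decay.

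Of the 60 members, 56 passed the filter on low values, which asked for an intensity of at least 28.75, the median over all canine probe sets, on at least 1 array. RBM20, a regulator of titin splicing in the heart, RBM24, a muscle splicing factor, RBM38, and RBM46, a germ cell protein, did not pass and their highest intensity was 22.9, in RBM38 on the array of control cells in hypoxia. The 56 tested members had mean intensities from 24.0 for RBM4B to 10888 for HNRNPA2B1. Intensities of different probe sets are not on a common scale, so only differences between arrays for the same probe set are compared below. All differences are of log2(intensity + 16), which understates the difference of dim probe sets, and a positive oxygen difference means higher in hypoxia. As the RNA came from bulk cultures, fewer cells of a type and less RNA per cell cannot be told apart.

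In control cells, a group of SR and HNRNP transcripts and RBM6 were lower in hypoxia. In the probe sets that stand for the genes, no member was 1.5-fold higher, except RBM14 with a pseudocount of 1. Other probe sets of RBM27 (1.08), RBM39 (0.89) and RBM26 (0.73) were higher at that size. At 2-fold, SRSF5 was the only one of the 56 members, or 1.79%, and it was lower. Of all 9749 genes tested, 3.59% reached 2-fold in either direction, with 0.544% lower and 3.05% higher. At 1.5-fold, 7 members or 12.5% were lower (SRSF5, HNRNPAB, RBM6, HNRNPH3, SRSF4, SRSF3 and SRSF2), beside 4.32% of all genes, and 0 members were higher, beside 10.2% of all genes. The median difference was -0.07 over the members and 0.03 over all genes. The families differed in sign. The median was -0.24 for SRSF, with 9 of 11 below 0, and -0.25 for HNRNP, with 14 of 17 below 0, whereas it was 0.11 for RBM, with 18 of 28 above 0. Over all genes 46.8% were below 0.

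In HIF2α-KD cells the same oxygen comparison gave smaller differences. No member reached 2-fold, beside 1.81% of all genes. SRSF5 was the 1 member lower at 1.5-fold, beside 2.69% of all genes, and RBM47 the 1 member higher, beside 5.47%. The median was 0.05 over the members and 0.02 over all genes, and by family it was -0.11 for SRSF, 0.06 for HNRNP and 0.10 for RBM. Of the 56 members, 23 were lower in both cell lines and 21 were higher in both, which makes 44 of the same sign. Over all genes the sign was the same for 65.9%.

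**Figure D1:**
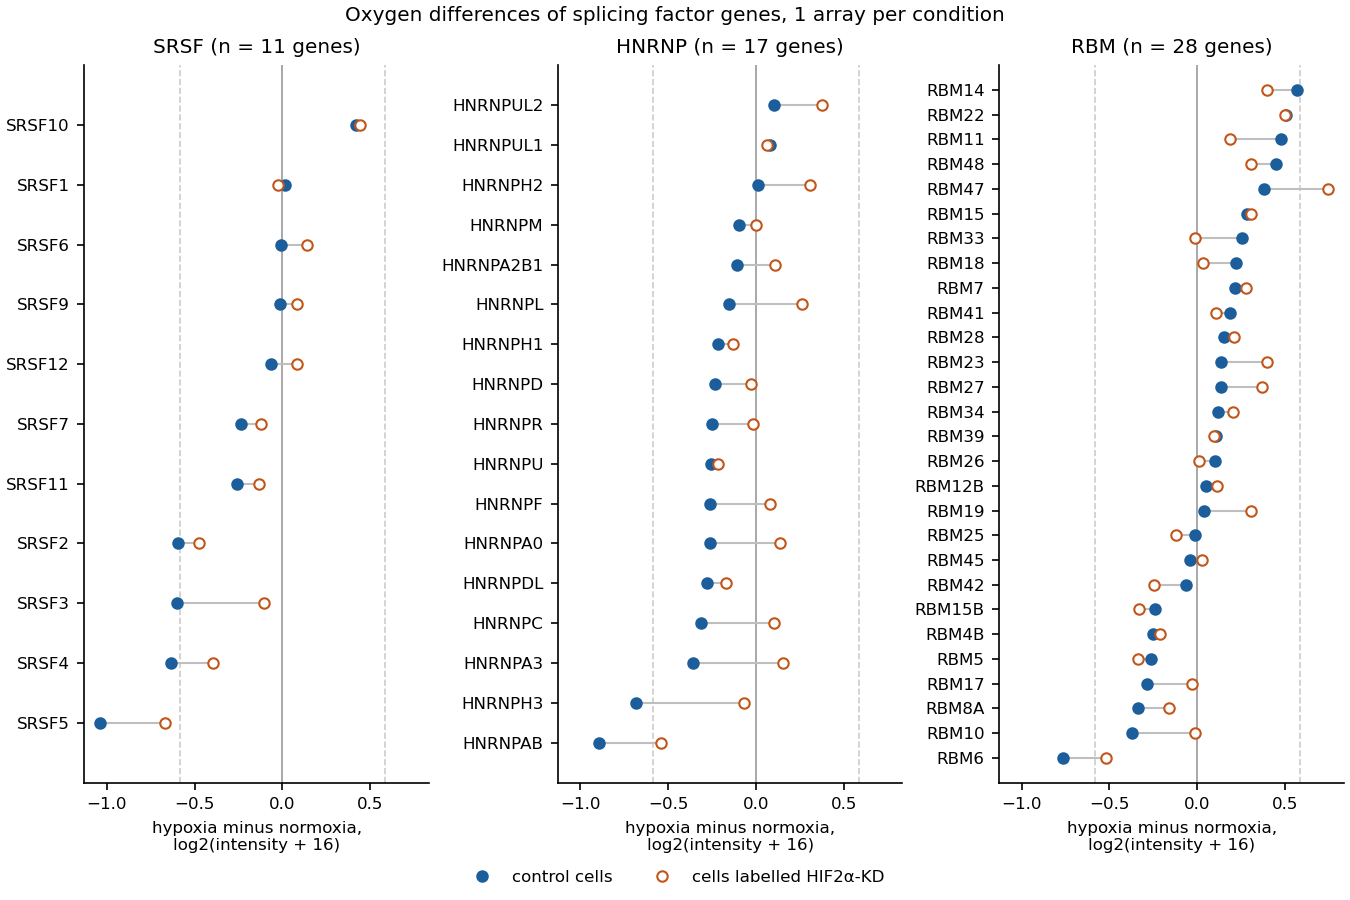
Hypoxia minus normoxia in log2(intensity + 16) for each of the 56 tested members, by family, with filled points for control cells and open points for cells labelled HIF2α-KD. Dashed lines mark 1.5-fold. SRSF5, HNRNPAB and RBM6 lie furthest to the left in both cell lines, and in the HNRNP panel 16 of 17 open points lie to the right of the filled ones.

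The single test the arrays allow is a limma fit over all 4 arrays with additive terms for oxygen and cell line, which has 1 residual degree of freedom and takes the oxygen difference to be equal in both lines. For oxygen it called 3 members lower in hypoxia at an adjusted p under 0.05 (HNRNPAB, SRSF2 and SRSF5), beside 0.421% of all genes, and 0 members higher, beside 2.4% of all genes. At an unadjusted p under 0.05, 8 members were lower and 5 higher, beside 7.43% and 13.1% of all genes. The standard errors of the members' oxygen terms ran from 0.081 for HNRNPA2B1 to 0.191 for RBM4B. All 3 calls were lost in limma without the intensity trend, without the filter on low values and with probe sets of a gene averaged, and cyclic loess normalization left HNRNPAB alone.

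Among the SR proteins, SRSF5, a regulator of exon inclusion through purine-rich enhancers, had intensities of 1507 in control cells and 1198 in HIF2α-KD cells in normoxia, and of 726 and 748 in hypoxia. Both hypoxic arrays were below both normoxic arrays. The differences were -1.04 in control cells and -0.67 in HIF2α-KD cells, and the limma oxygen term was -0.85 (SE 0.151, adjusted p = 0.0416). The other 2 of its probe sets that passed the filter gave -0.997 and -0.99 in control cells and -0.40 and -0.35 in HIF2α-KD cells.

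SRSF2, also known as SC35 and a marker of nuclear speckles, had intensities of 7086 and 7850 in normoxia, in control and HIF2α-KD cells respectively, and of 4694 and 5636 in hypoxia. The hypoxic arrays were again both below the normoxic ones. The differences were -0.59 and -0.48, and the limma oxygen term was -0.53 (SE 0.0876, adjusted p = 0.033). Its second probe set was lower by more, at -0.90 in control cells and -0.67 in HIF2α-KD cells.

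SRSF4, a large SR protein, had intensities of 1926 in control and 1864 in HIF2α-KD cells in normoxia, and of 1237 and 1411 in hypoxia. These are differences of -0.63 and -0.40, and the limma adjusted p was 0.095. The groups by oxygen did not overlap for this probe set, but its other 2 probe sets gave 0.06 and -0.10 in control cells. SRSF3, a small SR protein with roles in splicing, polyadenylation and mRNA export, had intensities of 3661 and 3184 in normoxia and of 2406 and 2959 in hypoxia. Its difference was -0.60 in control cells and -0.11 in HIF2α-KD cells, and the limma adjusted p was 0.228.

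The remaining SR proteins stayed within 1.5-fold in both cell lines. SRSF11 (-0.26 and -0.13) and SRSF7 (-0.24 and -0.12), a factor that also serves as an adaptor for mRNA export, were lower in both. The second probe set of SRSF7 gave -0.42 and -0.29, but that of SRSF11 was higher in both, at 0.10 and 0.32. SRSF1, a founding member of the family, had intensities between 4840 and 4976 on all arrays, with differences of 0.01 and -0.02. SRSF9 had intensities between 6044 and 6390.5. SRSF6 (-0.01 and 0.14) and SRSF12 (-0.07 and 0.08) were each of opposite sign in the cell lines. The second probe set of SRSF6, of similar mean intensity, was higher in both, at 0.18 and 0.32. That of SRSF12 gave -0.20 and -0.03.

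By the probe sets that stand for the genes, SRSF10 was the one SR gene higher in both cell lines. It encodes a splicing activator that turns into a repressor when dephosphorylated. Its intensities were 640 and 650 in normoxia and 860 and 888 in hypoxia, differences of 0.42 and 0.44 (limma adjusted p = 0.151). Its other 5 probe sets that passed the filter gave lower values, from -0.13 to 0.18 in control cells.

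**Figure D2:**
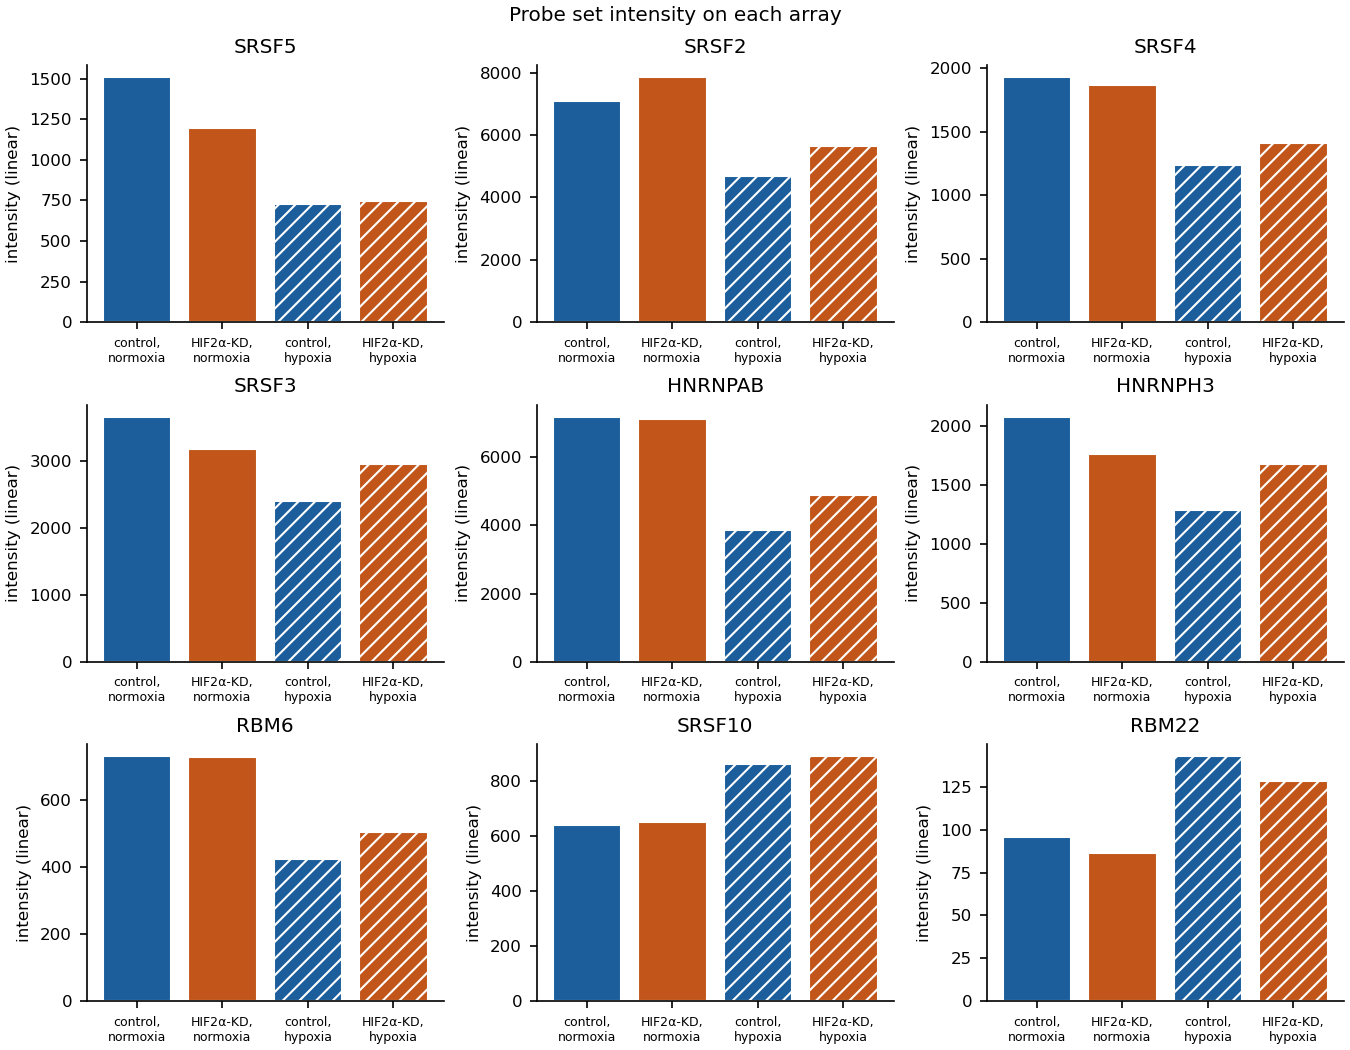
Linear probe set intensity on each of the 4 arrays for 9 members, with control cells in blue, cells labelled HIF2α-KD in orange and hypoxia hatched; every vertical axis starts at 0 and has its own range. In the panels of the 7 members lower at 1.5-fold in control cells both hatched bars are below both plain bars. In those of SRSF10 and RBM22 both are above. The choice of the 7 by their control-cell difference fixed part of this order, and the share of all genes with it was not counted.

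In the HNRNP family, HNRNPAB had the lowest oxygen difference. It encodes a protein of the A/B type, with paired RNA recognition motifs, that also binds DNA. Its intensities were 7180 in control and 7135 in HIF2α-KD cells in normoxia, and 3863 and 4899 in hypoxia. The normoxic arrays were close to each other and both hypoxic arrays were lower, with log2 differences of -0.89 and -0.54 and a limma oxygen term of -0.72 (SE 0.111, adjusted p = 0.0277). The second probe set gave -0.72 and -0.48.

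HNRNPH3 belongs to the F and H type, which binds runs of G. It had intensities of 2074 and 1759 in normoxia and of 1288 and 1679 in hypoxia, differences of -0.68 in control cells and -0.07 in HIF2α-KD cells (limma adjusted p = 0.276). All 4 of its probe sets were lower in control cells, from -0.71 to -0.57, and in HIF2α-KD cells they ranged from -0.07 to 0.12. The difference in control cells was therefore present in every probe set, and in HIF2α-KD cells in none at that size.

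In the probe sets that stand for them, the other HNRNP genes had small oxygen differences in control cells, from -0.36 for HNRNPA3 to 0.10 for HNRNPUL2. Second probe sets of HNRNPR (-0.61) and HNRNPF (-0.80) were lower by more, and those of HNRNPA2B1 are given below. A second probe set of HNRNPA3 was of the other sign, at 0.38 in control cells and 0.51 in HIF2α-KD cells. HNRNPC, which binds tracts of U, had a difference of -0.32 in control cells and 0.10 in HIF2α-KD cells. HNRNPF had -0.26 and 0.08, and HNRNPA0, a binder of AU-rich elements, -0.26 and 0.14. HNRNPDL was lower in both lines (-0.28 and -0.17), as was HNRNPU (-0.26 and -0.22), a nuclear matrix protein. A second probe set of HNRNPU gave 0.004 and -0.04. HNRNPD, also known as AUF1 and a factor in the decay of AU-rich transcripts, had intensities of 8104 and 7831 in normoxia and of 6900 and 7676 in hypoxia, with differences of -0.23 and -0.03.

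A feature of the HNRNP family that the choice of members did not use was its pattern over the arrays. The array of control cells in normoxia was the highest of the 4 for 13 of the 17 genes, or 76.5%, and for 25.99% of all genes tested. For SRSF it was the highest for 5 of 11 and for RBM for 6 of 28. The oxygen difference in control cells minus that in HIF2α-KD cells was below 0 for 16 of 17 HNRNP genes, with a median of -0.28, for 10 of 11 SRSF genes, with a median of -0.13, and for 15 of 28 RBM genes, with a median of -0.03. It was below 0 for 49.6% of all genes. The pattern was not particular to the HNRNP family. The 12 measured Sm and LSm genes, described below, had median oxygen differences of -0.17 in control cells and 0.03 in HIF2α-KD cells. Between the cell lines in normoxia their median was -0.11, with 9 of 12 below 0. With 1 array per condition the difference between the oxygen differences cannot be tested. A shift of the single array of control cells in normoxia cannot be told apart from a difference between conditions. The control-cell oxygen comparison and the normoxic cell line comparison both use that array.

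**Figure D3:**
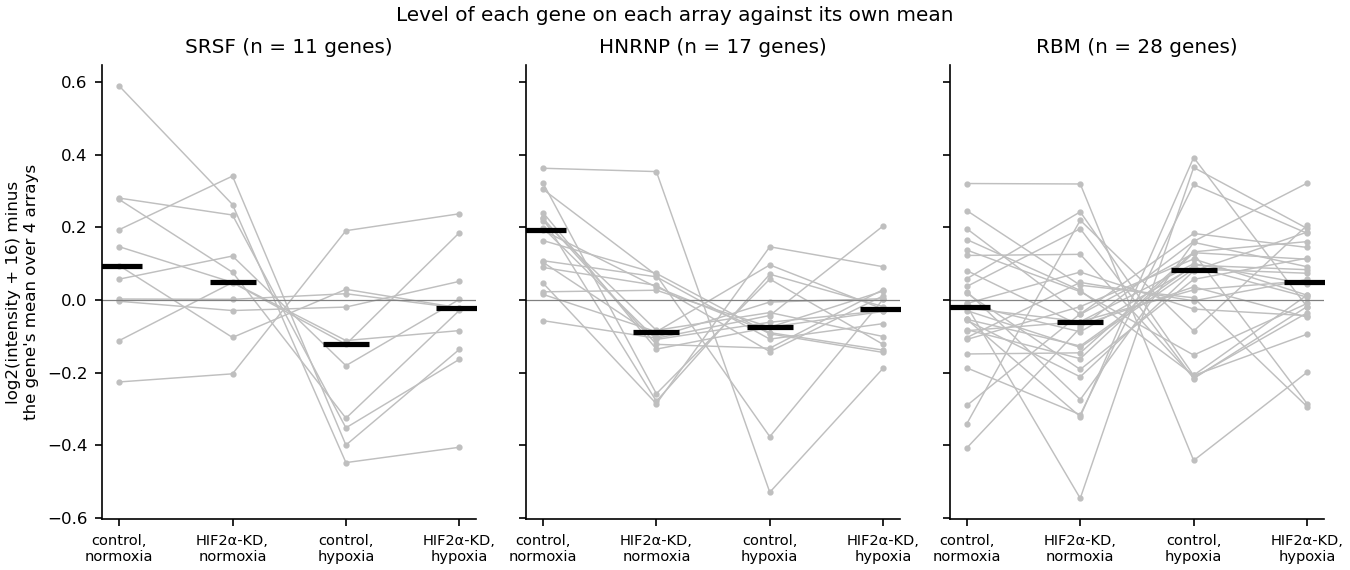
Level of each tested member on each array as log2(intensity + 16) minus its own mean over the 4 arrays, by family; grey lines join the values of 1 gene and black bars are medians over the family. The HNRNP median is above 0 only on the array of control cells in normoxia, whereas the SRSF medians are lowest on the array of control cells in hypoxia.

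Of the RBM genes in the spliceosome and exon junction complexes, RBM6 was the lowest in hypoxia. RBM6 is a paralog of RBM5 and RBM10, which regulate alternative exons. Its intensities were 731 and 730.5 in normoxia and 425 and 505 in hypoxia, differences of -0.76 and -0.52 with a limma oxygen term of -0.64 (SE 0.148, adjusted p = 0.0752). A second probe set gave -0.48 and -0.39. RBM6 passed the threshold with quantile normalization and with robust moderation in limma. RBM5, its neighbour in the genome, had -0.27 and -0.34, and RBM10 -0.37 and -0.01.

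RBM8A, the Y14 subunit of the exon junction complex, had differences of -0.34 in control cells and -0.16 in HIF2α-KD cells. RBM17, a factor of 3' splice site choice, had -0.29 and -0.03. RBM22, which contacts the catalytic core of the spliceosome, was on the other side, with intensities of 95.8 and 86.3 in normoxia and of 143 and 129 in hypoxia. Its differences were 0.50 and 0.50 (limma adjusted p = 0.111), and its second probe set gave 0.43 and 0.30. RBM48, a factor of the minor spliceosome, had 0.45 and 0.30, and RBM23, a paralog of RBM39, had 0.14 and 0.40 at intensities of 21.7 to 33.7. Over the 12 genes of this group the median was -0.04 in control cells and -0.02 in HIF2α-KD cells.

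Of the RBM genes with roles in m6A writing, nuclear RNA decay and paraspeckles, 6 of 7 were higher in hypoxia in control cells. In HIF2α-KD cells 5 of 7 were, and the medians were 0.21 and 0.27. Of all 9749 genes tested, 5182 were higher in control cells and 5182 in HIF2α-KD cells. These counts use 1 probe set per gene, and the probe sets of RBM26 and RBM27 spread widely, as given below. RBM14, a paraspeckle protein, had intensities of 411 and 521 in normoxia and of 618 and 692 in hypoxia, differences of 0.57 and 0.40 (limma adjusted p = 0.132). Its 7 probe sets that passed the filter ranged from -0.31 to 0.57 in control cells. RBM14 and RBM4B overlap in the RefSeq annotation and share a probe cluster on the array, so that values of both are uncertain.

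RBM15, a subunit of the m6A writer complex, had 0.28 and 0.31, and RBM7, a subunit of the nuclear exosome targeting complex, 0.21 and 0.27. RBM15B, a paralog of RBM15, had -0.24 and -0.33, and the dim RBM33, an adaptor of m6A removal, had 0.25 and -0.01. The 3 nucleolar genes RBM19, RBM28 and RBM34 were higher in both cell lines, from 0.04 to 0.15 in control cells and from 0.20 to 0.31 in HIF2α-KD cells. None of these genes was called.

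Of the tissue-specific splicing regulators, RBM47, which shapes epithelial splicing and acts with the APOBEC1 editing enzyme, had intensities of 66.8 in control and 41.4 in HIF2α-KD cells in normoxia, and of 91.9 and 80.03 in hypoxia. The oxygen difference was 0.38 in control cells and 0.74 in HIF2α-KD cells (limma adjusted p = 0.123). Its second probe set gave 0.30 and 0.70. RBM11 had 0.47 and 0.18, at intensities of 77.0 to 113. The dim RBM4B, of the same group, was lower in both lines (-0.25 and -0.21), at intensities of 18.3 to 29.65. Of the RBM genes not assigned to a role here, RBM12B, RBM18 and RBM45 lay between -0.04 and 0.22 in both lines.

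Between the cell lines the members differed little. In normoxia, 0 members reached 2-fold, beside 1.16% of all genes, and 0 were higher or lower at 1.5-fold, beside 2.45% and 3.55% of all genes. The median difference of HIF2α-KD minus control cells was -0.09 over the members and -0.04 over all genes. It was -0.21 for HNRNP, with 16 of 17 below 0, -0.03 for SRSF and -0.07 for RBM. Over all genes 56.4% were below 0. The lowest members were HNRNPA0 (-0.58), RBM47 (-0.53), HNRNPL (-0.50), HNRNPC (-0.38) and HNRNPA3 (-0.35), and the highest RBM33 (0.56), RBM14 (0.33), RBM11 (0.25), RBM5 (0.18) and SRSF6 (0.16). HNRNPL, which binds CA repeats, had intensities of 4927 in control and 3471 in HIF2α-KD cells in normoxia, and of 4426 and 4160 in hypoxia. RBM33 was dim, with intensities of 20.6 and 38.0 in normoxia.

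In hypoxia, 0 members reached 2-fold, beside 0.985% of all genes, and 0 were higher or lower at 1.5-fold, beside 1.62% and 4.93%. The medians were 0.03 over the members and -0.04 over all genes, and 0.07 for SRSF, with 9 of 11 above 0, 0.03 for HNRNP and -0.01 for RBM. The lowest were RBM42 (-0.41), RBM48 (-0.41), RBM15B (-0.30), HNRNPA0 (-0.18) and RBM47 (-0.17). The highest were HNRNPH3 (0.38), HNRNPAB (0.34), SRSF6 (0.31), SRSF3 (0.30) and RBM33 (0.29). The cell line comparison in hypoxia shares its arrays with the oxygen comparisons, so these values are not separate evidence on HNRNPH3, HNRNPAB or SRSF3.

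In the limma fit the cell line term called 0 members, beside 0% of all genes. At an unadjusted p under 0.05 it had 1 member, HNRNPA0, beside 9.63% of all genes. The smallest adjusted p was 0.509 among the members and 0.0594 among all genes.

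**Figure D4:**
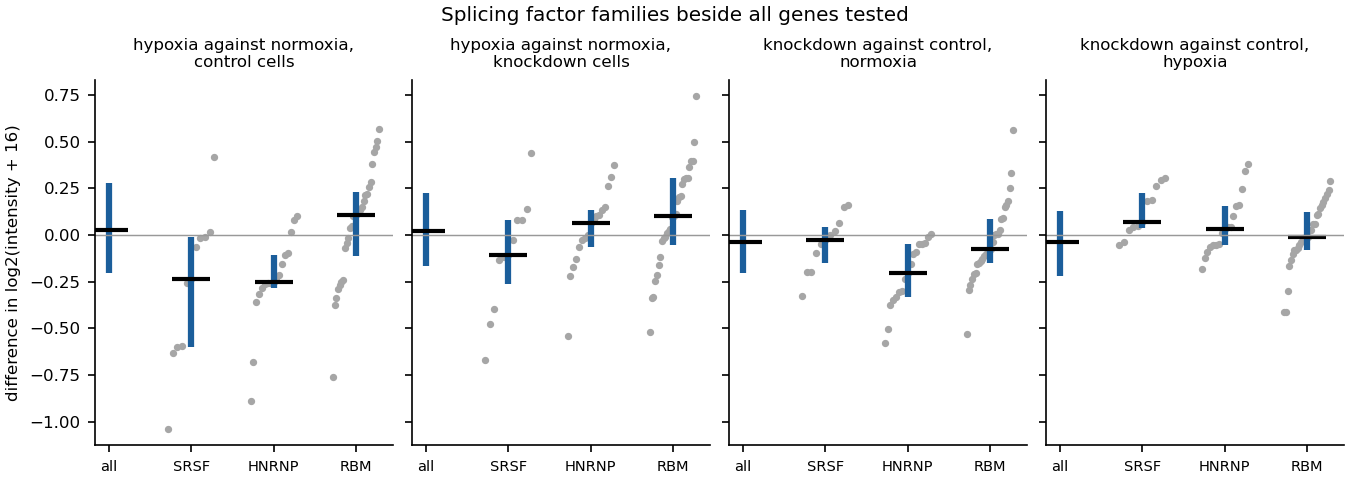
Differences in log2(intensity + 16) in the 4 comparisons for all 9749 genes tested and for the tested members of each family; black bars are medians, blue bars run from the lower to the upper quartile and grey points single members. The SRSF and HNRNP medians of -0.24 and -0.25 stand below the median of all genes in the control-cell oxygen panel, and the HNRNP median is -0.21 in the normoxia panel of the cell lines.

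Most members were measured by more than 1 probe set, and these did not always move together. Of 144 probe sets of members, 126 passed the filter, and 41 members had more than 1. In 12 of the 41, or 29.3%, the control-cell oxygen differences of the probe sets spread by at least 0.5, as in 24.6% of all genes with more than 1, and in 3 or 7.32% by at least 1, beside 4.93% of all such genes. Counted by probe set, 18 of 126 were lower at 1.5-fold in control cells, where 4.74% of all named probe sets were, and 3 were higher, where 11.5% were. Probe sets of 1 gene can lie on different transcripts or ends, and the positions of these probe sets were not analysed here.

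HNRNPA2B1, a sorter of RNA and reader of modified transcripts, had the widest spread. The probe set that stands for it had intensities of 11688 and 10129 in normoxia and of 10833 and 10902 in hypoxia, differences of -0.11 and 0.11. Another had intensities of 605 and 656 in normoxia and of 130 and 240 in hypoxia, differences of -2.08 and -1.39. Yet another had 174 and 159 in normoxia and 54.6 and 70.7 in hypoxia, differences of -1.43 and -1.02. So 2 of its 5 probe sets were over 2-fold lower in both cell lines, and the other 3 lay between -0.32 and 0.16 in the 2 cell lines.

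Probe sets of RBM27 and RBM39 stood apart in the other direction. RBM27 takes part in nuclear decay of polyadenylated RNA. Of its probe sets, 1 had intensities of 106 and 120 in normoxia and of 242 and 246 in hypoxia, differences of 1.08 and 0.95, and the one that stands for the gene had 0.14 and 0.37. RBM39, a coactivator and splicing factor, had a probe set at 448 and 362 in normoxia and 842 and 618 in hypoxia, differences of 0.89 and 0.75, beside 0.10 and 0.10 for the one that stands for it. In RBM26, a partner of RBM27 in the same decay pathway, the values ran from -0.49 to 0.73 in control cells. SRSF1 had 0.01 in the probe set that stands for it and -0.51 and -0.56 in the other 2, whose differences in HIF2α-KD cells were -0.10 and -0.11. HNRNPF had -0.26 and -0.80. These probe sets were singled out after their values were seen.

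**Figure D5:**
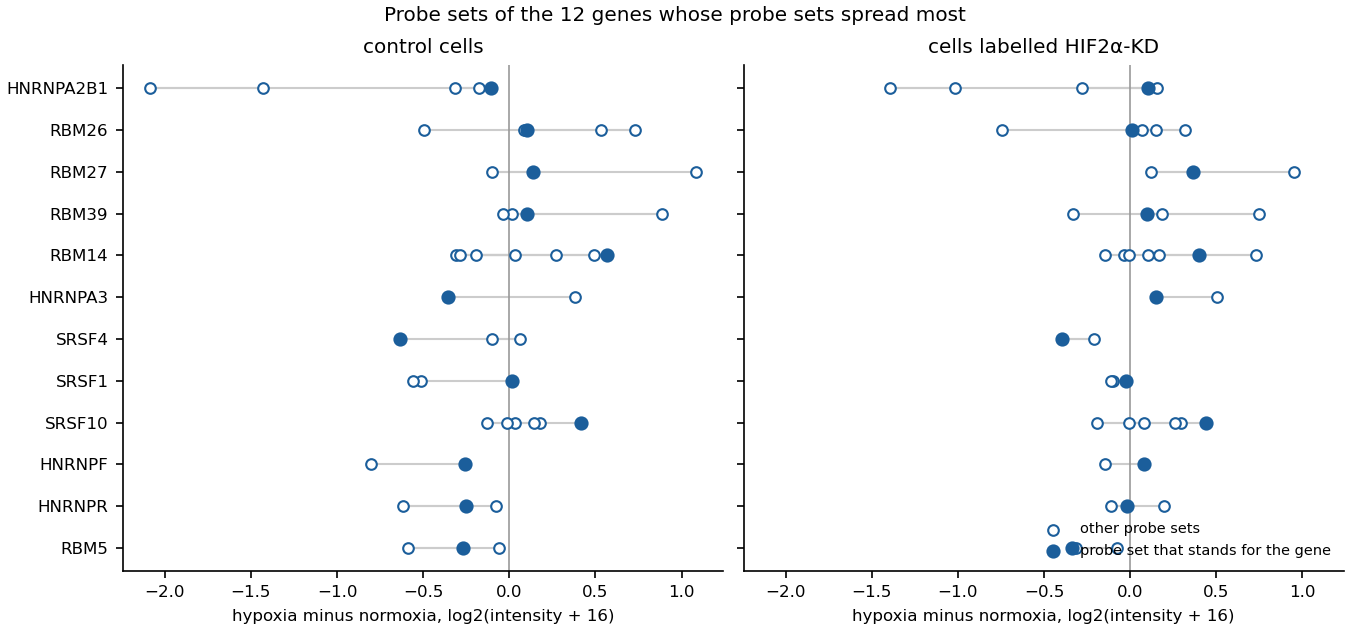
Hypoxia minus normoxia in log2(intensity + 16) for every probe set that passed the filter in the 12 members whose probe sets spread by at least 0.5 in control cells; filled points are the probe sets that stand for the gene and open points the others. HNRNPA2B1 spans from -2.08 to -0.11 in control cells, and RBM27 and RBM39 each have 1 probe set apart to the right in both panels.

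Other genes of the splicing machinery give the setting. In control cells the 12 measured Sm and LSm proteins, the rings of the spliceosomal RNPs, had a median oxygen difference of -0.17, with 11 below 0, and 0.03 in HIF2α-KD cells. The medians were -0.09 and -0.02 for 20 U1 and U2 proteins, with SF3B5 at -0.75 and -0.21. They were -0.12 and 0.03 for 28 proteins of the tri-snRNP and catalytic steps, with the helicase SNRNP200 at -0.32 and -0.51, and -0.28 and -0.01 for 13 of the exon junction and nonsense-mediated decay. Within these lists limma called no gene. SMG1, a kinase of nonsense-mediated decay, was the 1 gene among them at 2-fold (-1.15 and -0.32), at intensities of 91.1 and 45.4 in normoxia and 32.1 and 33.1 in hypoxia.

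SR-like proteins and other regulators lay on the higher side. The 10 SR-like proteins had medians of 0.11 and 0.23. SREK1, a regulator of SR proteins, was called higher by limma (0.73 and 0.79, adjusted p = 0.0359), and SRRM2, a scaffold of nuclear speckles, had 1.03 and 0.24. The 8 SR protein kinases had medians of 0.27 and 0.04, with CLK4 at 0.62 and 0.07 and SRPK1 at 0.50 and 0.64. Of 26 other splicing regulators, with medians of 0.18 and 0.14, MBNL3 had the highest difference in HIF2α-KD cells (0.70 and 0.80, limma adjusted p = 0.0734). In this list limma called EWSR1 lower (-1.04 and -1.22, adjusted p = 0.0154) and TAF15 (0.66 and 0.58, adjusted p = 0.0346) and PTBP3 (0.75 and 0.71, adjusted p = 0.0471) higher. EWSR1 and TAF15 are FET proteins, and PTBP3 is a paralog of the polypyrimidine tract binding protein.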

How the data were processed

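RNA of 4 cultures, 1 per condition, was labelled with biotin and hybridised to Affymetrix canine arrays. The deposited table gives, as made by the authors, an intensity on a linear scale for each of 42924 probe sets and each array. How probes were summarized and scaled, and with which software, is not given in the sources used here. A scaling that set unequal arrays alike would shift every difference. Array medians were 28.3 to 29.2, and 63 dim control reporters had medians of 5.48 to 7.24. Of the probe sets, 29254 had 1 symbol in the platform annotation. Of the members' Entrez identifiers, 53 of 60 were found in the RefSeq table (assembly UU_Cfam_GSD_1.0), all with the same symbol. Those of SRSF2, HNRNPAB, HNRNPL, HNRNPC, HNRNPH2, RBM14 and RBM15B were not found, so these symbols were not checked in this way.

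Probe sets below 28.75 on every array were removed, the remaining probe set of highest mean represented its gene, and log2(intensity + 16) was compared. Differences between 2 arrays were counted at 2-fold and 1.5-fold with no test. limma 3.58.1 (R 4.3.3) with a trend and Benjamini-Hochberg adjustment over all 9749 genes gave the only p-values. The limma residual of a gene comes only from the difference between the oxygen differences of the 2 cell lines, moderated over all genes. Technical spread and a response that differs between the lines cannot be told apart in it. Alternatives covered the pseudocount, normalization, filter, choice of probe set and moderation. The members and the lists of other genes were chosen with earlier results of these data known. The genes named are the members at 2-fold, the 8 highest and 8 lowest in the oxygen comparison of control cells and the 5 and 5 in the others, those called by limma, the 3 with the highest intensity in each family, and the extremes of the other lists. Others were chosen after their values were seen. Protein and promoter sequences were not analysed here.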

Additional observations from a re-analysis of the deposited data

How the results depend on the processing

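The number of arrays limits every value above. The limma fit already compares oxygen within each cell line. No paired analysis by replicate was possible because each group has 1 array. Without replicates no array could be left out of a pair. Of 128 values recomputed for the counts and medians of all members, 112 stayed within 1.5 times the count or within 0.1 of the median. This says little about stability, because these medians were themselves within 0.1 of 0 and several of the counts were 0. The median of all genes moved by less than 0.1 under every setting, but it lay close to 0 and could change sign. With quantile normalization it went from 0.03 to -0.04 in the control-cell oxygen comparison. Between the cell lines in hypoxia it went from -0.04 to 0.03. The control-cell oxygen medians ranged from -0.27 to -0.13 for SRSF, from -0.32 to -0.18 for HNRNP and from 0.06 to 0.13 for RBM. Of the 3 oxygen calls, HNRNPAB had an adjusted p of 0.00845 to 0.101, SRSF2 of 0.0123 to 0.131 and SRSF5 of 0.0152 to 0.0965 over the alternatives, and each kept its direction. The number of members called was 1 with cyclic loess normalization, and 0 without the filter, with the mean of probe sets and without the limma trend. In the control-cell oxygen comparison the count at 2-fold was 0 with a pseudocount of 64, and counting every probe set gave 4 at 2-fold and 21 at 1.5-fold. In HIF2α-KD cells it gave 2 and 11, and the count at 1.5-fold was 1 with a pseudocount of 64, with the filter at the 75th percentile and with the mean of probe sets. For HIF2α-KD against control cells at 1.5-fold, the count in normoxia was 3 with a pseudocount of 1 (HNRNPA0, RBM33 and RBM47), 1 with median centring (HNRNPA0) and 2 over every probe set, and in hypoxia 3 over every probe set. The cause of these changes was not tested.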
